A study of Mus musculus with 3 samples.

Results

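The 9 genes described here make itaconate, make nitric oxide, or take up, rebuild and break down arginine in mouse macrophages. They were chosen by name for these roles (Acod1, Nos2, Gch1, Ass1, Asl, Slc7a2, Arg1, Arg2 and Odc1), and all 9 were found among the 55536 mouse gene rows of the deposited tables. Activated macrophages are known for both products. Aconitate decarboxylase, encoded by Acod1, draws cis-aconitate out of the citric acid cycle to form itaconate, which inhibits succinate dehydrogenase and bacterial isocitrate lyase. Inducible nitric oxide synthase, encoded by Nos2, splits arginine into nitric oxide and citrulline, while the arginases split the same arginine into urea and ornithine, the start of the polyamines.

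The cells were C57BL/6J bone-marrow-derived macrophages, primary cells grown out from mouse marrow. They all received 100 ng/ml Lipid A, the membrane anchor of bacterial lipopolysaccharide, for 12 h, were washed out for 12 h, and met 100 ng/ml Lipid A again for 120 min. Ribosome-depleted RNA of the cytosolic fraction was sequenced in 3 libraries, replicates 1, 2 and 3, of this 1 group. Age and sex were not recorded. The labels number them as biological replicates 1 to 3, but all carry the same donor entry and no label gives each its own animal or culture, so the spread between them may be technical. Cells without Lipid A, or with a single exposure, were not analysed here. The values are therefore levels after the second exposure, and how far either exposure moved them was not tested. Nuclear RNA was not analysed here either, and fewer cells with a transcript cannot be told apart from less of it per cell.

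Levels are given as TPM, a length-corrected transcript abundance relative to the whole library that allows genes to be set against each other. Sequencing depth was 29376859 expected counts in replicate 1, 64822118 in replicate 2 and 37665844 in replicate 3. All 10 macrophage markers tested reached 1 TPM in every library and summed to between 5795 and 6716 TPM. Fibroblast, T and NK, B and dendritic cell marker lists summed to at most 0.39 TPM in any library, and the hepatocyte markers Alb, Apoa1 and Ttr were at 0. Of 7 neutrophil markers, 2 reached 1 TPM in every library (S100a8 and S100a9, list sum 3.52 to 7.26 TPM), and so did 2 of 5 endothelial markers (Kdr and Vwf, list sum 4.66 to 11.0 TPM), while Ly6g peaked at 0.01 TPM and Tek was at 0.

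Acod1 stood far above the other 8 genes. It had 1618, 1360 and 1131 TPM in replicates 1, 2 and 3, from 179143, 396883 and 187621 expected counts (mm10, ENSMUSG00000022126.6, chr14:103046977-103056573, plus strand). Its mean of 1369.5 ± 244 TPM (SD, n = 3) was the 15th highest of 22028 protein-coding genes. That was 95.0% of the summed TPM of the 9 genes, against 72.1 TPM for the other 8 together. The order of the replicates was the same in expected counts per effective library size, where Acod1 had 6272, 6237 and 4787 CPM, counts relative to library size, after TMM scaling, edgeR's correction for library composition. Here replicates 1 and 2 were nearly equal and replicate 3 was lower. The 3 protein-coding genes nearest to Acod1 in level over the 3 libraries were Fcer1g, the common gamma chain of Fc receptors, Gpnmb, a glycoprotein of the lysosomal system, and H2-D1, an MHC class I heavy chain. Their distances on log2(TPM + 1) were 0.25, 0.38 and 0.41.

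**Figure D1:**
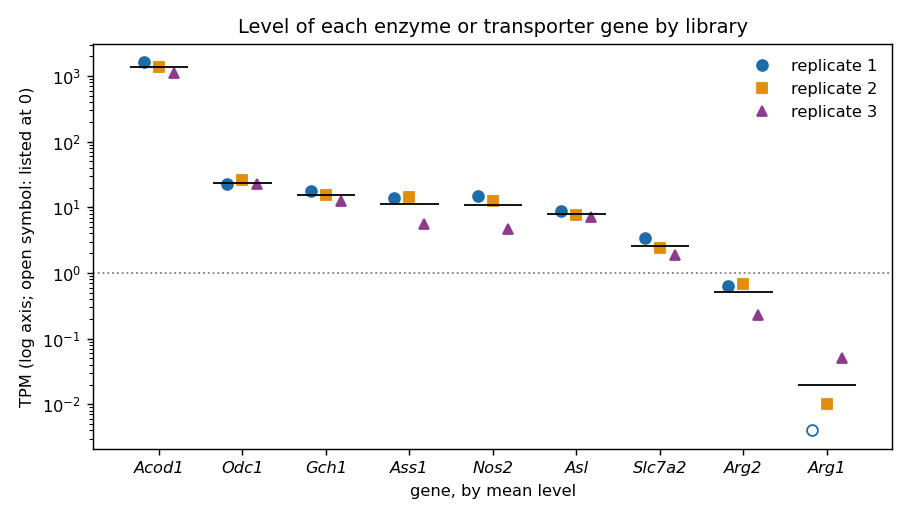
TPM of the 9 genes (log axis) in replicates 1, 2 and 3 (symbols), with the mean as a line, in order of mean level. Acod1 stands alone at the top with 1131 to 1618 TPM, 6 genes lie between 1 and 30 TPM, and Arg2 and Arg1 stay under the dotted line at 1 TPM.

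The genes of the citric acid cycle around Acod1 were measured at much lower levels. Of 15 genes listed for the supply and handling of itaconate, 13 reached 1 TPM in all libraries, and the list median was 23.4 ± 1.46 TPM (SD of the library medians, n = 3). The 8612 protein-coding genes that reached 1 TPM in all libraries, a set without undetected genes, had a median of 8.03 TPM. Cs, citrate synthase, had 37.6, 37.0 and 32.1 TPM and was lowest in replicate 3. The subunits of succinate dehydrogenase, the enzyme that itaconate inhibits, were the highest of the list after Acod1, with Sdhb at 59.8 ± 8.01, Sdha at 36.8 ± 5.13 and Sdhd at 36.5 ± 4.72 TPM. Clybl, which breaks down citramalyl-CoA on the route by which itaconate is degraded, had 1.33, 1.28 and 1.18 TPM. Oxgr1, a cell-surface receptor for oxoglutarate and itaconate, was listed at 0 in all 3 libraries.

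Nos2 was a mid-level transcript and, with Ass1, among the least even of the detected genes of the set. It had 15.0, 12.7 and 4.73 TPM in replicates 1, 2 and 3, from 2737, 6119 and 1297 expected counts (ENSMUSG00000020826.8, chr11:78920787-78960254, plus strand). Replicates 1 and 2 lay close together and replicate 3 lay at 0.342 of their mean. The mean of 10.8 ± 5.37 TPM ranked 3538 among the protein-coding genes. Acod1 exceeded it 108-fold, 107-fold and 239-fold in replicates 1, 2 and 3, a log2 ratio of 7.12 ± 0.65 (SD, n = 3; pseudocount 0.1 TPM). The wider gap in replicate 3 came with the lower Nos2 level there. The other nitric oxide synthases were close to absent, with Nos3, the endothelial enzyme, at 0.0133 ± 0.00577 TPM and Nos1, the neuronal enzyme, at 0.

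Gch1 encodes GTP cyclohydrolase 1, the first and rate-limiting step towards tetrahydrobiopterin, the cofactor without which nitric oxide synthase does not make nitric oxide. It had 17.7, 15.6 and 12.5 TPM in replicates 1, 2 and 3 (mean 15.3 ± 2.61; ENSMUSG00000037580.10, chr14:47153895-47189413, minus strand). On deposited TPM the libraries stood in the same order as for Acod1, and Gch1 was even by comparison with Nos2. On TMM-scaled CPM, Gch1 had 73.2, 76.1 and 57.1, so replicate 2 was the highest there. The later enzymes of the pathway were present too. Pts had 10.1 ± 1.13 TPM, and Spr, which completes the cofactor, had 2.68, 4.26 and 3.86 TPM. Qdpr, which regenerates it, had 13.9 ± 1.12 TPM. Gchfr, which encodes the feedback regulator of GTP cyclohydrolase 1, had 0, 0.04 and 0.07 TPM. Of the 15 genes of the nitric oxide list, 6 reached 1 TPM in all libraries and the median was 0.37 ± 0.02 TPM, so the expressed genes were the synthase, its cofactor enzymes and Nosip, a ubiquitin ligase named for binding nitric oxide synthase (13.8 ± 0.955 TPM). Gucy1a1 and Gucy1b1, the subunits of the guanylate cyclase that senses nitric oxide, were listed at 0 in every library.

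Ass1 and Asl rebuild arginine from the citrulline that nitric oxide synthase releases. Ass1, argininosuccinate synthase, had 14.1, 14.5 and 5.53 TPM in replicates 1, 2 and 3 (mean 11.4 ± 5.06; ENSMUSG00000076441.9, chr2:31470207-31520672, plus strand). Like Nos2 it was low in replicate 3, at 0.387 of the mean of the other replicates. Asl, argininosuccinate lyase, had 8.73, 7.69 and 7.03 TPM (mean 7.82 ± 0.857; ENSMUSG00000025533.15, chr5:130011258-130029247, minus strand). Asl was the more even of the pair, and replicate 3 lay at 0.856 of the other replicates. The log2 ratio of Ass1 to Asl was 0.68, 0.90 and -0.34 in replicates 1, 2 and 3 (0.42 ± 0.66). Ass1 was thus the higher of the pair in 2 of 3 libraries, and the mean ratio was smaller than its SD. Nos2 and Ass1 kept nearly the same level as each other in every library, with ratios of 1.06, 0.877 and 0.855 on TPM. On the same TPM values, Ass1 was the nearest of all protein-coding genes to Nos2 over the 3 libraries, at a distance of 0.27 on log2(TPM + 1). The next nearest were Gem, a small GTPase, at 0.30 and Mmp13, a collagenase, at 0.32. These distances restate the TPM values and are not separate evidence. On TMM-scaled CPM, with no length correction, the mean log2 ratio of Nos2 to Ass1 was 1.32, against -0.11 on TPM. The ratio of Nos2 to Ass1 was looked at after the values had been seen.

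Slc7a2 encodes CAT2, a carrier that brings arginine and other cationic amino acids into the cell. It had 3.42, 2.40 and 1.85 TPM in replicates 1, 2 and 3 (mean 2.56 ± 0.797; ENSMUSG00000031596.15, chr8:40862396-40922308, plus strand). The level was the lowest of the 7 genes that reached 1 TPM in every library. Slc7a1, which encodes the related carrier CAT1, had 6.65, 7.44 and 4.74 TPM and lay above Slc7a2 in all 3 libraries. The exchanger subunits Slc3a2, at 163 ± 27.3 TPM, and Slc7a7, at 23.6 ± 3.26 TPM, were the highest of the 8 transport genes listed, of which 4 reached 1 TPM in all libraries (list median 1.75 ± 0.372 TPM). Slc7a3, encoding a further carrier of the family, was the lowest at 0.00667 ± 0.00577 TPM.

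The 4 full-length Slc7a2 transcripts of GENCODE M21 differ in a coding exon, of which each transcript holds 1 of 2 versions. The sequences are shown because the choice between these exons changes the coding sequence of this transporter, and the transcript tables bear on it. It is not the only coding difference, since Slc7a2-201 and Slc7a2-204 share a version but have coding lengths of 1971 and 2022 bases. Both are given on the plus strand, which is the coding strand, from the GENCODE M21 transcript sequences on mm10, and capitals mark bases that differ between them or face a gap in their alignment.
Exon of Slc7a2-202 and Slc7a2-203, chr8:40908056-40908195, 140 bases: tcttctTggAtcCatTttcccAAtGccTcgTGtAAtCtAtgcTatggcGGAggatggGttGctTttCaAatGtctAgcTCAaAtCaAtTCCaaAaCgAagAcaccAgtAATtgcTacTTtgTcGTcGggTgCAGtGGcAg
Exon of Slc7a2-201 and Slc7a2-204, chr8:40908398-40908534, 137 bases: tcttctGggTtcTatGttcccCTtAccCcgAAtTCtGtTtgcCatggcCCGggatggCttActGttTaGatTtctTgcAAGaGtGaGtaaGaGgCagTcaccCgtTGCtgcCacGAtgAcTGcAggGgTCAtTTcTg
The exons shared 84 of 137 aligned bases (61.3%), with 3 gap columns.

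The longer exon was the more abundant version in every library and in both deposited transcript tables. In the first table, transcripts with it made up 78.1%, 77.3% and 73.3% of the TPM of the 4 full-length transcripts in replicates 1, 2 and 3 (76.2% ± 2.58). In the second table the share was 91.5%, 96.3% and 87.3% (91.7% ± 4.46). The size of the share thus depended on the quantification, while its side did not. The leading single transcript changed with the table as well. Slc7a2-203 led in the first table, at 42.0% ± 1.86 of the TPM of the gene, and Slc7a2-202 led in the second, at 51.5% ± 5.36. For the other 8 genes the leading transcript was the same in both tables, and Acod1 and Arg2 have a single annotated transcript.

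The arginases were the lowest of the 9 genes. Arg1, the cytosolic arginase that is a hallmark of macrophages exposed to interleukin-4, was listed at 0, 0.01 and 0.05 TPM in replicates 1, 2 and 3 (ENSMUSG00000019987.9, chr10:24915221-24927484, minus strand). These values stood for 0, 1 and 3 expected counts, with exact Poisson 95% upper limits of 3.69, 5.57 and 8.77 counts, and the floor of 3 counts would amount to 0.102, 0.0464 and 0.0798 unscaled CPM in replicates 1, 2 and 3. Arg1 was thus at or under that floor in all 3 libraries. Arg2, the mitochondrial arginase, had 0.63, 0.67 and 0.23 TPM from 35.1, 99.2 and 19.0 expected counts (mean 0.510 ± 0.243; ENSMUSG00000021125.6, chr12:79130777-79156301, plus strand). It was the higher arginase in all 3 libraries and was low in replicate 3. Pooled over the libraries, Arg1 had 4 of 157 arginase counts, a share of 2.55% (exact binomial 95% interval 0.698 to 6.39%). It had 4 of the 10157 counts of Arg1 and Nos2 together, 0.0394% (0.0107 to 0.101%), where the intervals cover counting error only. On log2(TPM + 0.1), Nos2 exceeded Arg1 by 7.23, 6.86 and 5.01 in replicates 1, 2 and 3. With Arg1 near 0 the size of this difference is set largely by the pseudocount. Exons of Arg2 overlap those of Vti1b, a SNARE gene on the opposite strand with 28.3, 24.4 and 27.6 TPM, over 285 of 1428 bases. Whether the counting used strand is not given in the sources used here. The deposited posterior SD, the uncertainty the quantification gave to the Arg2 count, was 0.36, 0.48 and 0.17 counts in replicates 1, 2 and 3. Whether reads in that stretch came from Arg2 or Vti1b was not tested.

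Of the 13 genes of the arginine and ornithine list, 6 reached 1 TPM in all libraries, and Arg2 itself was the median gene (0.510 ± 0.243 TPM). Oat, which turns ornithine towards proline and glutamate, had 9.77 ± 0.963 TPM, Gatm, which uses arginine for creatine, had 8.70 ± 2.37, and Aldh18a1, which makes the precursor of proline and ornithine, had 3.03 ± 0.471. The urea cycle genes Cps1, Nags and Otc and the agmatine hydrolase gene Agmat were listed at 0 in every library.

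Odc1 encodes ornithine decarboxylase, which turns ornithine into putrescine and opens polyamine synthesis. It was the second highest of the 9 genes, with 22.8, 26.1 and 22.6 TPM in replicates 1, 2 and 3 from 2026, 6089 and 2965 expected counts (mean 23.8 ± 1.96; ENSMUSG00000011179.8, chr12:17544794-17551505, plus strand). Replicates 1 and 3 were nearly equal and replicate 2 was higher, a pattern not seen for Acod1, Nos2 or Gch1. Of the 13 polyamine genes 12 reached 1 TPM in all libraries, the highest share of the 5 lists, and the list median was 9.44 ± 0.673 TPM. The highest of them encode regulators of polyamine levels. Sat1, which acetylates polyamines for export and breakdown, had 179, 82.9 and 121 TPM. Oaz1, the antizyme that sends ornithine decarboxylase to the proteasome, had 109 ± 14.1 TPM, and Azin1, which neutralises the antizyme, had 40.8 ± 4.54 TPM. Azin2, a second inhibitor of antizymes, was the lowest at 0.493 ± 0.0586 TPM. Amd1, Srm and Sms, which carry putrescine on to spermidine and spermine, had 10.2 ± 0.252, 3.58 ± 0.540 and 6.58 ± 0.239 TPM.

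**Figure D2:**
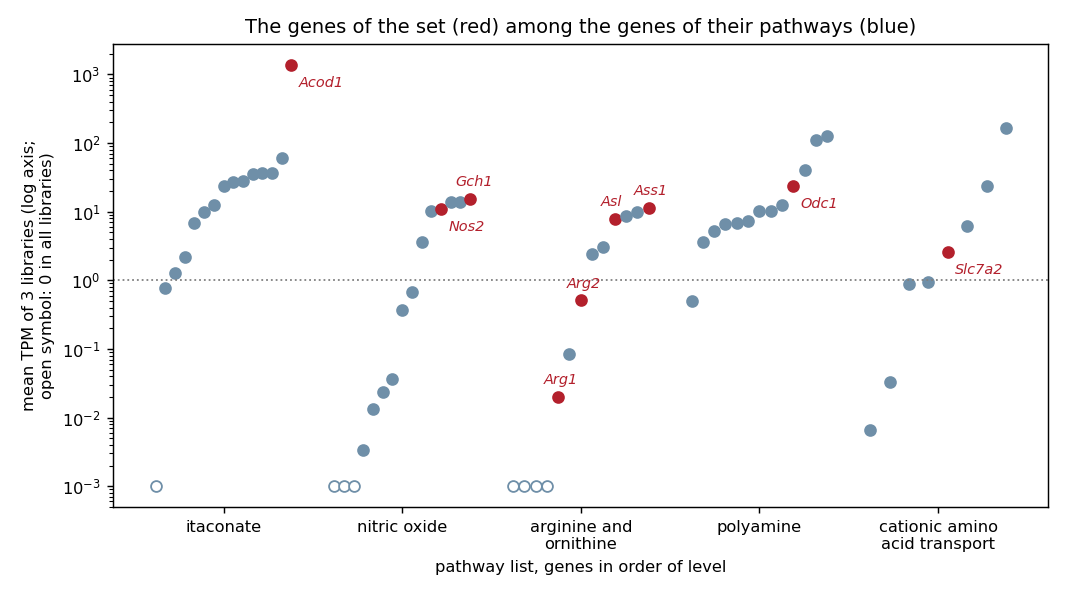
Mean TPM over 3 libraries (log axis) of every gene of the 5 pathway lists, in order of level, with the 9 described genes in red and open symbols for genes at 0 in all libraries. Acod1 tops its list far above Sdhb at 59.8 TPM, Nos2 and Gch1 lie among the few expressed genes of theirs, and Arg1 and Arg2 lie under the dotted line at 1 TPM.

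A transcript annotated for nonsense-mediated decay, Odc1-205, took a varying part of the Odc1 signal. Its share of Odc1 TPM was 9.92%, 25.4% and 16.0% in replicates 1, 2 and 3 in the first transcript table and 4.69%, 11.3% and 7.06% in the second. Replicate 2 had the highest share in both tables, although the second gave lower shares throughout. The protein-coding Odc1-201 alone had 20.0, 19.3 and 18.3 TPM in the first table, where replicate 2 was not the highest, and 8.09, 12.1 and 9.18 TPM in the second, where it was. Odc1-205 holds 505 bases that Odc1-201 lacks, 421 of them past the end of Odc1-201 and 84 in its introns.

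The summed expected counts of the retained-intron transcripts of the set were highest in replicate 3, and most of them came from 1 Gch1 transcript. Gch1-202, annotated as a retained intron and lying in introns of the coding Gch1-201 for 3476 of its 3508 bases, took 0.734%, 0.385% and 4.39% of Gch1 TPM in replicates 1, 2 and 3, from 19, 23 and 126 expected counts. The second table gave 0.734%, 0.410% and 4.75%. Gm49134, a processed pseudogene on the opposite strand within the Gch1 locus, was listed at 0, 0.13 and 1.03 TPM. Gm18811, a processed pseudogene there on the same strand, was listed at 0.2, 0.02 and 0.3 TPM. Over all 12 annotated retained-intron transcripts of the set, which belong to 5 of the genes, the expected counts were 27.3, 29.9 and 153, and without Gch1-202 they were 8.34, 6.85 and 26.5. Replicate 3 held the most in each case, although its library was smaller than that of replicate 2. Single transcripts differed. In the first table Asl-208 had 1, 2 and 12 expected counts in replicates 1, 2 and 3, but Odc1-202 had 1.62, 0 and 0. Odc1-203 took 1.40%, 0.154% and 0.976% of Odc1 TPM there. The share of retained-intron transcripts over all genes was not computed, so these counts mark nothing particular to the set. The nuclear-retained RNAs Malat1 (191, 133 and 952 TPM) and Neat1 (14.3, 10.9 and 55.6 TPM) were highest in replicate 3 as well, and so was the mitochondrial mt-Co1 (411, 453 and 966 TPM). Their part in the levels of the 9 genes was not tested.

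**Figure D3:**
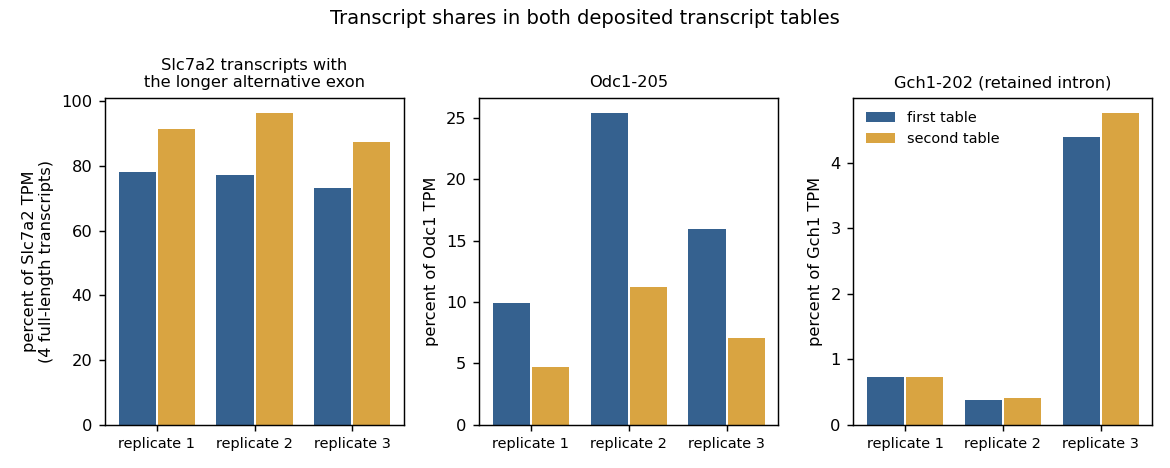
Shares in percent in replicates 1, 2 and 3 of the Slc7a2 transcripts with the longer alternative exon, of Odc1-205 and of Gch1-202, in the first (blue) and second (yellow) deposited transcript table. The longer Slc7a2 exon stays above 70% in every bar, Odc1-205 is highest in replicate 2 and Gch1-202 in replicate 3.

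The order of the 9 genes by mean level was Acod1, Odc1, Gch1, Ass1, Nos2, Asl, Slc7a2, Arg2, Arg1. Neighbours whose ranges over the 3 libraries overlapped were Gch1 and Ass1, Ass1 and Nos2, and Nos2 and Asl, but Gch1 lay above Ass1 within each of the 3 libraries. For the other overlapping pairs the order held in 2 of 3 libraries, so it is not resolved by the spread. The remaining 5 neighbouring pairs did not overlap and kept their order in every library. In all, 7 of the 9 genes reached 1 TPM in every library, as 39.1% of all protein-coding genes did. Arg1 and Arg2 stayed under it in every library on deposited TPM. Protein-coding genes held 32.5%, 26.5% and 27.1% of deposited TPM in replicates 1, 2 and 3, so the threshold depends on the scale. On TPM rescaled to the sum of protein-coding and long noncoding genes, Arg2 had 1.90, 2.46 and 0.825, and 7 genes again reached 1 in every library.

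All 8 genes with enough counts differed between the libraries by more than counting error (chi-square test on TMM-scaled expected counts, adjusted p of at most 6.01e-04, with Benjamini-Hochberg adjustment over 14568 genes). So did 71.6% of all genes tested, so a call by this test is common and marks nothing particular to the set. Arg1 had too few counts to be tested. Without replicate 3, 3 of the 8 remained past the threshold (Odc1, Ass1 and Slc7a2), where 53.4% of 13517 genes were. The adjusted p between replicates 1 and 2 was then 0.912 for Nos2, 0.0896 for Acod1, 0.209 for Gch1, 0.149 for Asl and 0.312 for Arg2. Without replicate 2, Asl alone was lost (adjusted p = 0.121), in a fit that called 52.5% of the genes tested. Without replicate 1, all 8 remained, where 56.6% of the genes tested were called.

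The sizes of the differences set Nos2 and Ass1 apart from the others. Between the highest and the lowest library, TMM-scaled CPM differed 2.91-fold for Nos2 and 2.86-fold for Ass1, and 99.3% of the 8612 detected protein-coding genes had a smaller fold than either. Slc7a2 followed with 1.63-fold (91.0% smaller). Odc1, Gch1 and Acod1 differed 1.35-fold, 1.33-fold and 1.31-fold (71.2%, 68.8% and 65.6% smaller), and Asl differed 1.19-fold, under the median of 1.23-fold. Arg2, which was under 1 TPM and so not ranked among the detected genes, differed 3.21-fold.

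**Figure D4:**
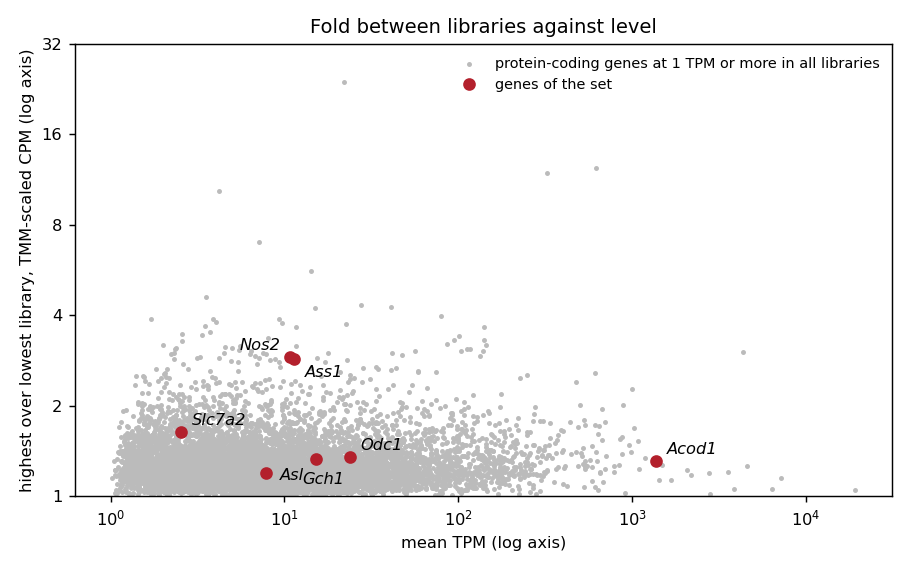
Fold between the highest and lowest library (TMM-scaled CPM, log axis) against mean TPM (log axis) for protein-coding genes at 1 TPM or more in all libraries, with genes of the set in red. Nos2 and Ass1 lie near the top of the cloud at 2.91-fold and 2.86-fold, while Asl and Acod1 lie inside it.

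On deposited TPM, 8 of the 9 genes were lowest in replicate 3, as were 35.1% of detected protein-coding genes. Arg1 was the exception, on 3 counts. The position of replicate 3 held for most genes when the scale was changed, with 7 genes lowest there on TPM rescaled to the sum of protein-coding and long noncoding genes (23.1% of detected genes) and 7 on TMM-scaled CPM (39.0%). For Odc1 it did not hold, since replicate 1 was lowest on both of these scales (68.7, 95.7 and 80.9 rescaled TPM in replicates 1, 2 and 3). In the second quantification, rescaled, 6 genes were lowest in replicate 3 (20.6% of detected genes). Asl had replicate 2 lowest instead, at 29.3, 28.0 and 29.0 rescaled TPM. Which of replicates 1 and 2 was highest also turned with the scale for Acod1, Gch1, Nos2 and Asl. Replicate 1 was highest for 5 of the 9 genes on deposited TPM, and replicate 2 for 7 of them on rescaled TPM. The matching shares of all genes were not computed, so these counts say nothing particular about the set. Nos2 illustrates both points, with 45.1, 46.6 and 17.0 rescaled TPM. Its replicate 3 was lowest whichever scale was used, but the distance varied. It lay at 0.342 of the mean of replicates 1 and 2 on deposited TPM and at 0.443 in the rescaled second quantification.

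**Figure D5:**
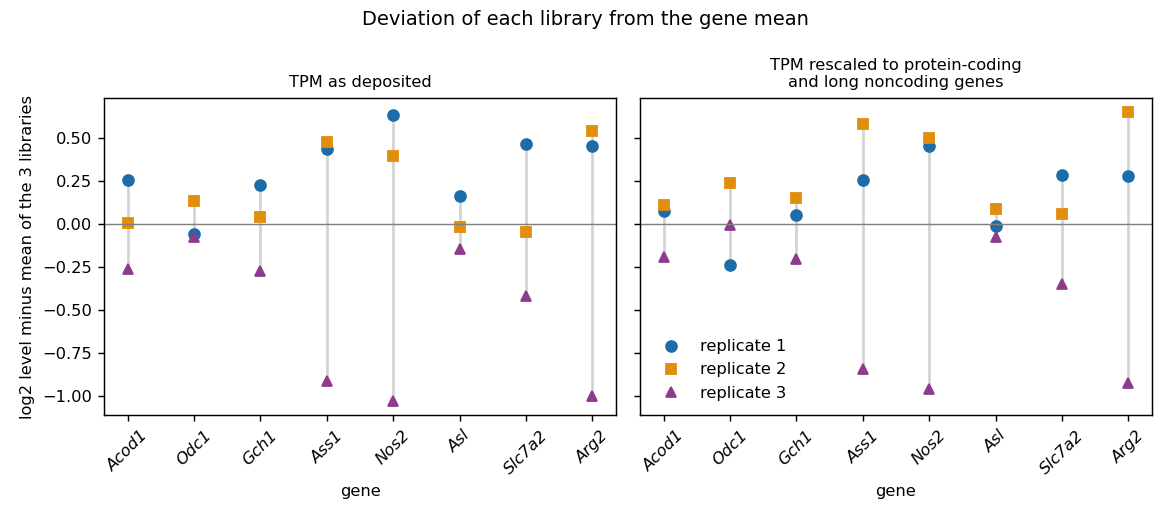
Log2 level of each library minus the mean of the 3 libraries for 8 genes (Arg1, at 0 in replicate 1, is not shown), on deposited TPM (left) and on the rescaled TPM (right). Replicate 3 lies about 1 log2 unit below the mean for Nos2, Ass1 and Arg2 on both scales. The order of replicates 1 and 2 changes between the panels for Acod1, Gch1, Nos2 and Asl, and stays for Odc1, Ass1, Slc7a2 and Arg2.

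Of the pathway lists around the set, the same chi-square test called 11 of 14 itaconate genes, 6 of 8 nitric oxide genes, 7 of 8 arginine and ornithine genes, 11 of 13 polyamine genes and 6 of 6 cationic amino acid transport genes, counts that include the described genes and stand beside the 71.6% of all genes tested.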

How the data were processed

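RNA of the cytosolic fraction was measured in 3 libraries of 1 group. The authors deposited a gene table, a first and a second transcript table holding TPM with expected or estimated counts, per the file headers, on mm10 and annotation M21. Per the file headers, the authors' first tables also gave each transcript's percent of its gene, and scores in the form of TPM credibility bounds and a posterior SD of each count. The first is described as made from transcriptome alignments and the second from reads and an index; the sources used here do not name the tools. Deposited TPM were taken over all rows. Rows naming no gene held 0.350%, 0.169% and 0.168% of counts and were left out of library sizes. Transcript shares were computed from TPM, and rescaled TPM were TPM divided by the sum over protein-coding and long noncoding genes.

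Expected counts were rounded for TMM (edgeR 4.0.16), size factors from DESeq2 1.42.0 as an alternative, and a chi-square test with 2 degrees of freedom on genes with at least 10 counts in 1 library or more, checked on simulated data. No between-group test was possible, and p-values measure only the spread between these libraries. With a library left out, the TMM factors of all 3 were kept. Ratios used a pseudocount of 0.1 TPM. Exons were read from GENCODE M21 and aligned with Biopython 1.88; the remaining steps ran in Python 3.11.15 with scipy 1.17.1, pandas 2.3.3, numpy 2.4.6 and matplotlib 3.10.9, and in R 4.3.3.

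The genes, marker lists and pathway lists were chosen with earlier results of these data known. All 9 genes are named, with the 3 highest and the lowest other gene of each pathway list and the 3 genes nearest in level to Acod1 and Nos2. Other names were added for their role after their values were seen. Alternatives were another pseudocount, rescaled TPM, TMM-scaled CPM, DESeq2 size factors, no filter, the second quantification, a threshold of 5 TPM and leaving out each library.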

Additional observations from a re-analysis of the deposited data

How the results depend on the processing

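Of 115 alternatives, 90 left the value within 1 SD of the libraries, or a count within 1.5 times, 24 moved it further and 1 reversed it. Where the SD is wide this keeps large shifts, such as a Gch1-202 share of 0.559% without replicate 3, against 1.84% with it. On CPM after TMM scaling, with no length correction, the log2 ratio was 6.41 for Acod1 to Nos2, 9.05 for Nos2 to Arg1 and 1.32 for Nos2 to Ass1, the last one reversed against -0.11 on TPM. A pseudocount of 1 TPM gave 0.55 for Arg2 to Arg1 and 3.40 for Nos2 to Arg1, and without one these ratios could not be computed because Arg1 is at 0 in replicate 1. The second transcript table gave 91.7% for the longer Slc7a2 exon and 7.67% for Odc1-205; the cause was not tested. Leaving out each library left between 3 and 8 of 8 genes past the chi-square threshold, 8, 7 and 3 without replicates 1, 2 and 3, where 56.6%, 52.5% and 53.4% of all genes tested were. The other moved values were levels, all higher on rescaled TPM (Acod1 4643, Nos2 36.2). On the TPM of the second quantification all but Arg1 moved lower (Acod1 657, Nos2 5.15), and Arg1 stayed within 1 SD. With both quantifications rescaled, the levels lay close together. The mean log2 ratio of the second to the first ran from -0.143 (Odc1) to 0.132 (Slc7a2), with Acod1 at -0.044 and Nos2 at -0.009. Arg1 had no such ratio. The transcript shares, the Nos2 to Ass1 ratio, the pathway counts and the count lowest in replicate 3 were examined with alternatives chosen after seeing the data. On rescaled TPM, 14 itaconate genes and 8 nitric oxide genes reached 1 TPM in all libraries. So did 6 arginine and ornithine, 13 polyamine and 6 cationic amino acid transport genes. Depth limits Arg1 and Arg2. No paired analysis was possible because the labels give only 1 group.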
